A study of Homo sapiens with 6 samples.

Results

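The genes of the ubiquitin ligase that indisulam redirects were followed through maps of open chromatin in neuroblastoma cells. There are 10 of them among the 20033 protein-coding genes of the annotation: DCAF15, DDB1, DDA1, CUL4A, CUL4B, RBX1, UBE2G1, NEDD8, UBE2M and CAND1. They were chosen as the parts of the CRL4-DCAF15 ligase and its regulators. The rule used no measurements, but earlier results of these data were known when the genes were chosen. Every peak that overlapped one of these genes or lay within 10 kb of either end was taken. The naïve lists gave 85 of 154926 and 72 of 115694 peaks. The R1 lists gave 141 of 340558 and 143 of 292030, and the R2 lists 50 of 67558 and 48 of 73484.

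ATAC-seq, in which the Tn5 transposase cuts and tags accessible DNA, was done on 6 libraries of 100000 cells, 2 for each of 3 cultures of SK-N-AS, a human neuroblastoma cell line. Naïve cells came out of an SK-N-AS xenograft whose mouse had received vehicle. R1 and R2 were grown from SK-N-AS xenografts that had relapsed for the second time under indisulam and were taken during the third cycle of the drug. All 3 cultures were untreated when assayed, and each is the outgrowth of adherent cells of a dissociated tumor. Naïve, R1 and R2 stand for 1 outgrowth each as far as the labels tell, and nothing says that the 2 libraries of a culture came from separate dishes, so that p-values measure only the spread between libraries. As a check of the label, 6 of 8 sympathetic neuroblastoma markers and 5 of 6 mesenchymal markers had a peak at their start in all 6 lists, and none of the 14 lacked one throughout.

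DCAF15 is the substrate receptor that indisulam binds, and the drug glues the splicing factor RBM39 to it. DDB1 carries the receptor to a cullin scaffold, CUL4A or its paralog CUL4B, with DDA1 as a small stabilizing subunit. RBX1 is the RING protein at the other end of the scaffold, where it recruits the ubiquitin-loaded enzyme, and UBE2G1 is a ubiquitin-conjugating (E2) enzyme that works with CRL4 ligases. NEDD8, a ubiquitin-like protein, is attached to the cullin by the E2 enzyme UBE2M and switches the ligase on, and CAND1 binds cullins without NEDD8 and helps them exchange receptors. An open start site marks a gene that can be transcribed, and ATAC-seq does not measure the amount of RNA or protein.

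The DNA at the starts of the 5 genes on which the results turn is shown, because the start peaks described next were sought around it. Each stretch runs 5′ to 3′ along the gene, 250 bases before and 50 after the start, and the first 4 are RefSeq promoters of GRCh38.p14. The CUL4A stretch was read from hg38 around the start used here, since its RefSeq start lies at -1420 bp. Capitals mark matches to the GC box (GGGCGG, or CCGCCC on the other strand), the CCAAT box (CCAAT or ATTGG), the E-box (CACGTG) and the ETS core (CCGGAAG or CTTCCGG).
DCAF15, chr19:13952259-13952558, plus strand: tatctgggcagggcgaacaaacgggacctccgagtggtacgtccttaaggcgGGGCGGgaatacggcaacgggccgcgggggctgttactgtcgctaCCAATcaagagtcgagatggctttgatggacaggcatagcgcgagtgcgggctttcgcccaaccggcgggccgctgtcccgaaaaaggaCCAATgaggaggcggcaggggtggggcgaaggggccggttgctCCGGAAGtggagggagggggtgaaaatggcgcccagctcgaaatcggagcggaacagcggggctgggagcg
RBX1, chr22:40951128-40951427, plus strand: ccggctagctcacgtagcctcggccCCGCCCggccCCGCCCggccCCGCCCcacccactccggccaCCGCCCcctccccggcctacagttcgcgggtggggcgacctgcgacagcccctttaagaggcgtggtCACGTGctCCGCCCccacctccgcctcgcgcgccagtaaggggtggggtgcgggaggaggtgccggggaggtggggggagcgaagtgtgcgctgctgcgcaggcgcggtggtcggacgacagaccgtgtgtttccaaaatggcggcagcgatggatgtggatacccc
UBE2G1, chr17:4366626-4366925, minus strand: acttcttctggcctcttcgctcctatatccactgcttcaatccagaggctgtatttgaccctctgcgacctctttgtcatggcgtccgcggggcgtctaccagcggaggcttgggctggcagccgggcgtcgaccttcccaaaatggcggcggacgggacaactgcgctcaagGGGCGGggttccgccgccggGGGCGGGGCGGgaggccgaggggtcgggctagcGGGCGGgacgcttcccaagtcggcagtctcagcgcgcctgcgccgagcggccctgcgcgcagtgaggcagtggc
NEDD8, chr14:24232318-24232617, minus strand: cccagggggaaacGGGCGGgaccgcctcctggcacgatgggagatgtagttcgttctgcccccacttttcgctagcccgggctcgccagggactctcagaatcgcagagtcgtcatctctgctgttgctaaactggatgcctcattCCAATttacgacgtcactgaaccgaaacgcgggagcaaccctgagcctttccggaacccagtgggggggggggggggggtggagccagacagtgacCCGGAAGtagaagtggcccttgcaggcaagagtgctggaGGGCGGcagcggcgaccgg
CUL4A, chr13:113209363-113209662, plus strand: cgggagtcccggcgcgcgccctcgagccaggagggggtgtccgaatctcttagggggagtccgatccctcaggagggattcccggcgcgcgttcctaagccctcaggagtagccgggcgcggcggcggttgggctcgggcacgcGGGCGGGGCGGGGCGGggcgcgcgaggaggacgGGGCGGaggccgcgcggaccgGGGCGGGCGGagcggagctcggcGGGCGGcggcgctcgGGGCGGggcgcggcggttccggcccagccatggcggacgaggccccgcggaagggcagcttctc
Of 35116 RefSeq promoters, 45.0% held a GC box, 34.6% a CCAAT box, 10.3% the ETS core and 7.26% the E-box. DCAF15 had CCAAT boxes whose first bases lay at -153 and -64 from the start and an ETS core at -21. RBX1 had 5 GC boxes, from -225 to -109, and an E-box at -117 beside the last of them. UBE2G1 had 4 GC boxes and NEDD8 had 2, and the CUL4A stretch, which was 79.7% G and C, had 8. The NRF1 core (CGCATGCG), the CRE (TGACGTCA), the AP-1 site (TGANTCA) and the YY1 site (AAGATGGCG) were searched for on both strands too, and none of the matched RefSeq promoters of the genes held one. GC boxes here can overlap one another. A match describes letters and not a bound site. RefSeq promoters were matched for 9 of the 10 genes. DDA1 was the one without an entry.

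The libraries differed in depth before any comparison. The background rate, which is the mean number of tags that the peak caller expected in a window, was 2.29 and 1.35 for the naïve pair of libraries, 7.94 and 5.43 for the R1 pair and 0.85 and 0.899 for the R2 pair. The lowest count called was 9 and 7 tags in the naïve pair, 18 and 14 in the R1 pair and 6 in each R2 list. Peak heights were therefore tested as ranks, with centred log2 folds as an alternative. For each protein-coding gene, the most significant peak within 1 kb of the start of the canonical transcript was ranked by its −log10 p among the 10950 starts that had such a peak in all 6 lists, as all 10 genes did. The result, the start percentile, is 0 for the weakest of these starts and 100 for the strongest. At the median start, with 17 tags in the first R2 library and 165 in the first R1 library, the starts that shared that tag count made up 4.68% of all in the former and 0.511% in the latter, so that 1 tag moves a rank further in R2. The SD within a group was 0.410 in normal score for naïve, 0.221 for R1 and 0.454 for R2. In bulk cells, a site open in fewer cells and a site less open in each cell cannot be told apart.

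Across the 10 genes the start percentiles did not move together. In R1 the start peak of CUL4A, which it shares with PCID2, rose in rank and that of NEDD8 fell against naïve cells. No other gene passed the test in any comparison. Limma on normal scores of the ranks, with Benjamini-Hochberg adjustment over all 10950 starts, called 1 of the 10 higher in R1, against 3.83% of all starts, and 1 lower, against 3.22%. For R2 against naïve cells limma called 0 higher (0.74% of all starts) and 0 lower (0.521%). For R1 against R2 it called 0 higher (0.721%) and 0 lower (0.694%). At an unadjusted p under 0.05 the counts were 6, 4 and 4 of the 10 genes in these comparisons, beside 25.2%, 18.1% and 18.6% of all starts. The median difference over the 10 was -0.11, 0.14 and -0.57 in normal score, where 1 unit is 1 SD of the scores, and that over all starts was -0.03, -0.00324 and -0.01. By ranks alone, all 4 resistant libraries lay above both naïve libraries at 3 of the 10 starts (CUL4A, RBX1 and UBE2G1), against 12.7% of all starts, and below both at 1 (DDA1), against 13.7%. R1 and R2 share the naïve libraries as their control, so that these counts are not independent.

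**Figure D1:**
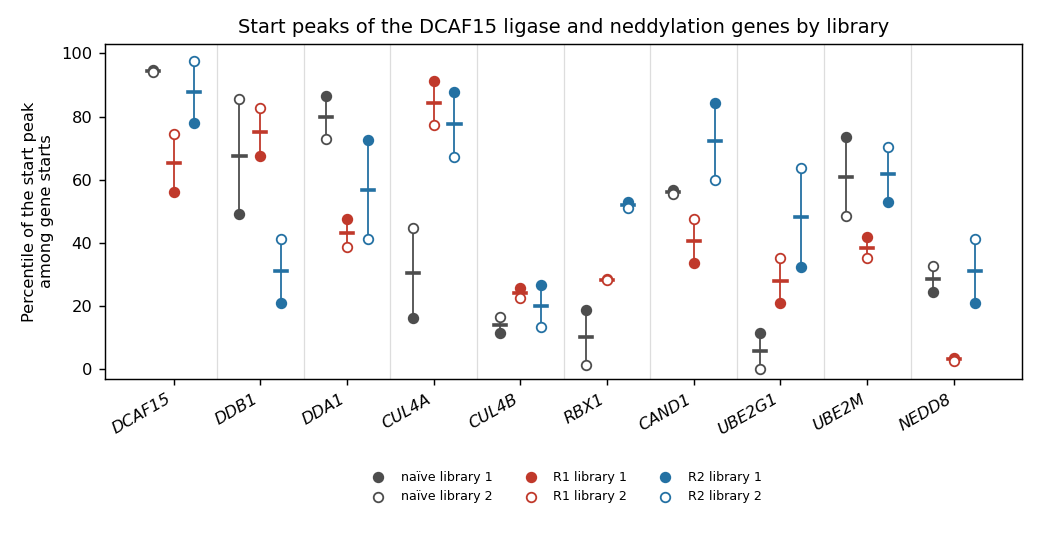
Percentile of the start peak among 10950 gene starts for each gene and library (filled circle, first library; open circle, second library; short bar, mean of the 2). CUL4A sat at 16.2 and 44.7 in naïve cells and at 67.2 to 91.2 in the 4 resistant libraries, whereas NEDD8 sat at 3.68 and 2.59 in R1 and above 20 in the other 4.

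DCAF15, the receptor for the drug (chr19:13952509-13961449, plus strand of hg38, like all coordinates here), kept an open start in all 6 libraries. Its start peak held 72 and 47 tags in the naïve pair, 176 and 142 in the R1 pair and 25 and 43 in the R2 pair. The fold enrichment over background was 22.2 and 20.4 in the naïve pair, 19.8 and 22.2 in the R1 pair and 14.1 and 23.2 in the R2 pair. The start percentile was 94.9 and 94.2 in the naïve pair, 56.2 and 74.6 in the R1 pair and 78.1 and 97.5 in the R2 pair. Both R1 libraries thus ranked below both naïve libraries, and the R2 libraries lay on either side of the naïve pair. The folds of the R1 pair differed little from those of the naïve pair, but folds depend on depth. The median start held 34 and 23 tags in the naïve pair and 165 and 109 in the R1 pair. In normal score R1 minus naïve was -1.19 (SE 0.392, limma), which missed the threshold with an adjusted p of 0.0853. This difference passed under 4 of 16 alternatives. Among these were a variance trend (adjusted p = 0.0409, limma) and centred log2 folds, at -0.79 (adjusted p = 0.0413, limma). Over the alternatives its adjusted p ran from 0.0231, with either R2 library left out, to 0.490 without the first R1 library. R2 minus naïve was -0.23 (adjusted p = 0.803, limma). The summits lay between -248 and -151 bp in all 6 libraries, within the printed stretch and close to the first CCAAT box.

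The chromatin around DCAF15 on chromosome 19 was open well beyond its start. From 10 kb before to 10 kb after the gene (chr19:13942509-13971449), peaks covered 60.3% and 46.0% of the bases in the naïve pair, 59.0% and 54.0% in the R1 pair and 9.66% and 11.3% in the R2 pair. Over all protein-coding genes the median was 2.17% and 1.61% in the naïve pair, 9.16% and 6.97% in the R1 pair and 0.98% and 1.07% in the R2 pair. Ranked among genes, the DCAF15 window stood at the percentiles 95.6 and 95.5 in the naïve pair, 85.1 and 86.3 in the R1 pair and 89.5 and 89.9 in the R2 pair, so that the naïve libraries were the highest and the R1 libraries the lowest. The start peak was 3048 and 2390 bp wide in naïve cells and 2972 and 3302 bp in R1, and reached into intron 1. In R2 it was 730 and 667 bp wide, and a separate small peak of 9 and 10 tags stood in intron 1. Of 29 sites in the window, made by joining summits within 250 bp, 3 had a peak in all 6 lists and 6 had one in both naïve and both R1 lists but in neither R2 list. A list counted at a site if its peak covered the middle of the site or had given a summit to it. These 6 lay in introns 3, 4 and 6 and downstream over RFX1. The R2 lists have the lowest background rates, and a missing peak there cannot be told apart from lower depth.

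The gene starts around DCAF15 ranked lower in the resistant cells too. All 28 other starts within 1 Mb had a lower mean percentile in R1 than in naïve cells, with a median of -33.7 points, and the difference of DCAF15 itself was -29.2. In R2 all 28 were again lower, with a median of -25.2, but that of DCAF15 was -6.71, above 26 of the 28. DDA1 (chr19:17309518-17323298, plus strand) lies on the same arm of chromosome 19. Of its 40 neighbors, 39 were lower in R1 (median -29.6 points) and 39 in R2 (median -15.6), and the differences of DDA1 itself were -36.5 and -22.8. In R1 the order depended on the scale. There 12 of the 40 fell further than DDA1 in points. In normal scores centred by GC content, an alternative described below, 24 did, with a median of -1.03 against -0.93 for DDA1. In R2 the median of these scores was -0.60 against -0.66 for DDA1. The DDA1 start held 57 and 31 tags in the naïve pair, 161 and 96 in the R1 pair and 23 and 16 in the R2 pair. The start percentile of DDA1 was 86.6 and 72.9 in the naïve pair, 47.7 and 38.8 in the R1 pair and 72.4 and 41.4 in the R2 pair. All 4 resistant libraries were thus below both naïve ones, the first R2 library only just. The difference was -1.03 in R1 (SE 0.350, adjusted p = 0.0950, limma) and -0.67 in R2 (adjusted p = 0.343), neither past the threshold. In R1 DDA1 passed with either R2 library left out (adjusted p = 0.0404, limma). Whether the difference of a gene and those of its neighbors have 1 source was not tested.

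**Figure D2:**
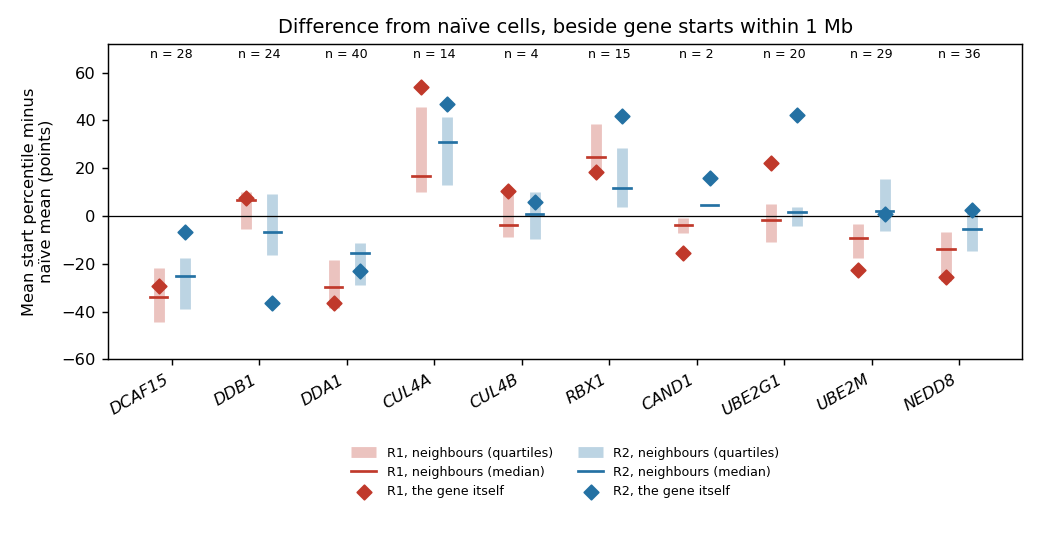
Mean start percentile of R1 (red) and R2 (blue) minus the naïve mean, in percentile points, for each gene (diamond) and for the other gene starts within 1 Mb (line, median; bar, quartiles; n, number of neighbors). DCAF15 and DDA1 lay among lowered neighbors, CUL4A and RBX1 among raised ones, and UBE2G1 at 22.4 and 42.4 stood above neighbors with medians of -1.55 and 1.75.

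The adaptor DDB1 (chr11:61299451-61342596, minus strand) had 34 and 38 tags at its start in the naïve pair, 199 and 159 in the R1 pair and 12 and 16 in the R2 pair. Among starts, DDB1 stood at the percentiles 49.2 and 85.7 in the naïve pair, 67.4 and 82.8 in the R1 pair and 20.9 and 41.4 in the R2 pair. Both R2 libraries were below the other 4, but the naïve pair lay wide apart. For DDB1, R2 minus naïve was -1.04 (SE 0.397, adjusted p = 0.200, limma), and R1 minus R2 was 1.21 (adjusted p = 0.140). In R2, 22 of its 24 neighbors had a difference above that of DDB1, with a median of -6.86 points against -36.3. The start peak also covered the start of TKFC, at -123 bp on the other strand, in all 6 lists, and the signal of the pair cannot be split. TKFC is also among the 24 neighbors.

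CUL4A (chr13:113208193-113267108, plus strand) was the scaffold gene whose start peak rose in rank. Its start peak held 22 tags in each naïve library, 286 and 147 in R1 and 30 and 22 in R2, where the median start held 34 and 23, 165 and 109, and 17 and 18. Among starts, CUL4A stood at the percentiles 16.2 and 44.7 in the naïve pair, 91.2 and 77.4 in the R1 pair and 87.8 and 67.2 in the R2 pair. The resistant libraries did not overlap the naïve ones, and the means were 30.4 ± 20.1 for naïve, 84.3 ± 9.81 for R1 and 77.5 ± 14.6 for R2 (SD, n = 2). CUL4A was 1.61 higher in R1 (SE 0.388, adjusted p = 0.0306, limma) and passed the threshold, while in R2 it was 1.37 higher (SE 0.388) and did not (adjusted p = 0.107). Leaving out the first naïve library raised the adjusted p in R1 to 0.143, and leaving out the first or the second R1 library raised it to 0.261 or 0.0638. The other alternatives kept the call, and the lowest adjusted p was 0.0125. R1 minus R2 was 0.25 (adjusted p = 0.766).

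The CUL4A start peak was shared with a neighbor. The start of PCID2, which runs the other way, lay at -944 bp and was inside the peak in all 6 lists. In naïve cells and R2 the summit lay between -159 and -86 bp of the CUL4A start, within the stretch printed above. In R1 it was at -908 and -932 bp, beside the PCID2 start, so that the R1 value there is as much that of PCID2. The rise from naïve cells to R1 thus compares summits at different places in the shared peak. All 14 other starts within 1 Mb had a higher mean percentile than in naïve cells in R1 (median 16.7 points) and in R2 (median 30.8 points), beside 53.9 and 47.1 for CUL4A. The 14 include PCID2, whose value comes from the same peak and so had to move with that of CUL4A.

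Inside and around the gene (chr13:113198193-113277108), CUL4A had 4 and 3 peaks in the naïve pair, 44 and 49 in the R1 pair and 7 in each R2 list. The ratio of the means was 13.3 in R1 and 2 in R2, where the medians over 16944 genes were 2 and 0.6, and 97.5% and 96.8% of the genes had a lower ratio. The share of bases covered was 2.42% and 2.89% in the naïve pair, 38.8% and 34.8% in the R1 pair and 4.67% and 4.42% in the R2 pair. Among genes this put the CUL4A window at the percentiles 52.0 and 60.8 in the naïve pair, 73.8 and 75.5 in the R1 pair and 79.6 and 77.2 in the R2 pair, all 4 resistant libraries above both naïve ones. Of its 62 sites, 33 had a peak in both R1 lists and in no other. When the R1 tags at these 33 were scaled down by the background rates, they reached the lowest called count in both naïve libraries at 10 sites, in all 4 other libraries at 0 and in none of the 4 at 6. The part of depth in these missing peaks was not tested further. The site in intron 5 (chr13:113232035), the only one away from the start with a peak in all 6 lists, held 20 and 15 tags in the naïve pair, 62 and 45 in the R1 pair and 20 and 22 in the R2 pair. Within its list it ranked at the percentiles 79.7 and 76.7, 89.8 and 89.0, and 91.0 and 93.1, the naïve libraries again lowest.

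**Figure D3:**
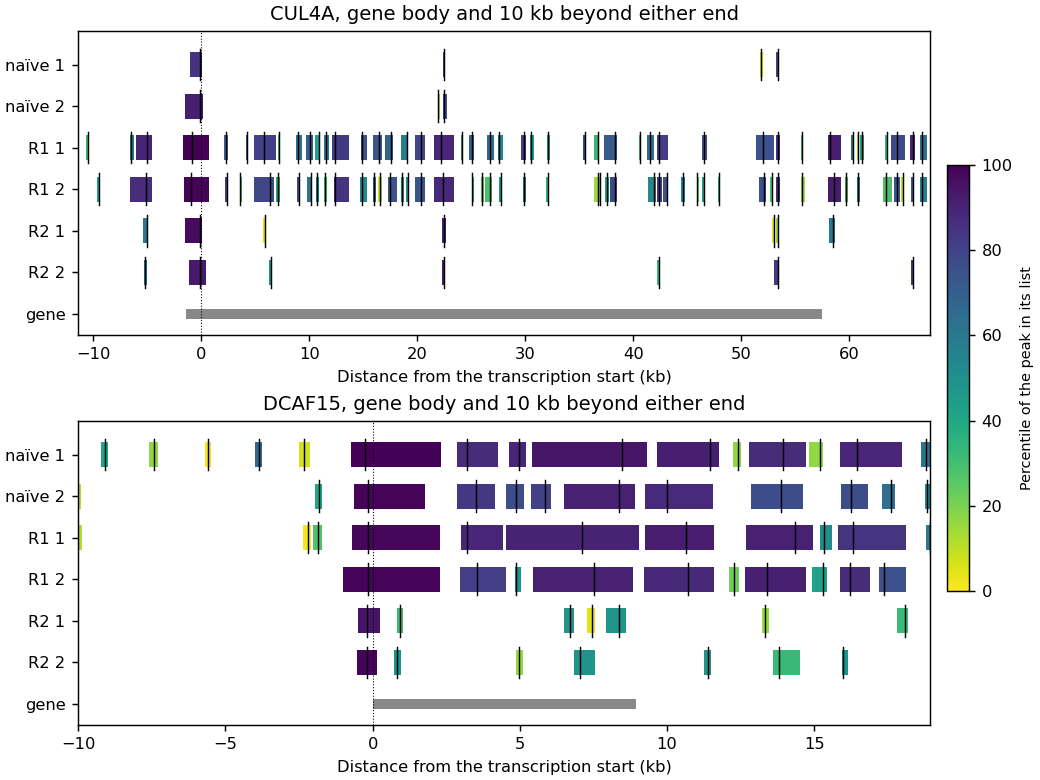
Peaks (bars, colored by percentile within their list; black line, summit) over CUL4A and DCAF15 and 10 kb beyond either end, by library and distance from the transcription start in kb (gray, gene). R1 had 44 and 49 peaks over CUL4A against 3 to 7 in the other libraries, and over DCAF15 the R2 peaks covered 9.66% and 11.3% of the bases against 46.0% or more elsewhere.

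CUL4B, the paralog of CUL4A (chrX:120505920-120604074, minus strand), had a weak start everywhere. Its start percentile was 11.4 and 16.4 in the naïve pair, 25.8 and 22.7 in the R1 pair and 26.7 and 13.3 in the R2 pair. The R1 pair lay just above the naïve pair, the R2 pair overlapped both, and its adjusted p was 0.454 in R1 and 0.750 in R2 (limma). CUL4A ranked above CUL4B in each of the 6 libraries, from 16.2 against 11.4 in the first naïve library to 91.2 against 25.8 in the first R1 library. In R1 the CUL4A value came from summits beside the PCID2 start.

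RBX1, the RING subunit (chr22:40951347-40973309, plus strand), and UBE2G1, the E2 enzyme (chr17:4269259-4366675, minus strand), had among the weakest starts in naïve cells. The RBX1 start peak held 23 and 10 tags in the naïve pair, 129 and 84 in the R1 pair and 18 in each R2 list. This put RBX1 at the start percentiles 18.8 and 1.42 in the naïve pair, 28.6 and 28.2 in the R1 pair and 52.9 and 51.2 in the R2 pair. All 4 resistant libraries lay above both naïve ones, as at 12.7% of all starts. The difference was 0.97 in R1 (SE 0.393, adjusted p = 0.151, limma) and 1.59 in R2 (SE 0.393, adjusted p = 0.0770), which missed the threshold and in R2 did so under all 14 alternatives, from 0.0561 to 0.207. The R1 value turned on the naïve pair, at 1.62 without the first naïve library (adjusted p = 0.0432, limma), which passed, and 0.31 without the second (adjusted p = 0.590). In R2 the same omissions gave 2.24 and 0.94. A pair of openings flanked the start, one just before the stretch printed above and one in intron 1. The naïve start peaks were the one in intron 1, with summits at 281 and 296 bp, and only the first naïve library also had a peak before the start, of 18 tags. In R1 a single peak of 1495 and 1516 bp spanned both, with summits at -277 and -275 bp. In R2 the first library had separate peaks of 18 and 15 tags on either side, and the second had a single peak of 997 bp across the start. The summits of the R2 start peaks were at -366 and 290 bp. The start percentiles of RBX1 thus compare openings that differ between libraries. All 15 neighbors ranked higher than in naïve cells in both R1 (median 24.7 points) and R2 (median 11.8 points), and in R2 the difference of RBX1, 42.0 points, was above all 15.

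UBE2G1 held 20 and 8 tags at its start in the naïve pair, 116 and 92 in the R1 pair and 14 and 21 in the R2 pair. The 8 tags of the second naïve library stood 1 above the lowest count called there. Among starts, UBE2G1 stood at the percentiles 11.4 and 0.123 in the naïve pair, 21.0 and 35.3 in the R1 pair and 32.5 and 63.9 in the R2 pair, so that all 4 resistant libraries ranked above both naïve ones. The difference was 1.52 in R1 (SE 0.510, adjusted p = 0.0909, limma) and 2.07 in R2 (SE 0.510, adjusted p = 0.0770). Over 14 alternatives the adjusted p in R2 ran from 0.0313, with either R1 library left out, to 0.224 without the second naïve library, and 3 of the 14 passed. In R1 UBE2G1 was 2.43 without the first naïve library (adjusted p = 0.0323, limma), which passed, and 0.61 without the second (adjusted p = 0.419), and in R2 the second omission gave 1.16. With peaks taken within 2500 bp of the start, the differences were 0.62 in R1 and 1.13 in R2. Its differences of 22.4 points in R1 and 42.4 in R2 were above those of all 20 other starts within 1 Mb, which had medians of -1.55 and 1.75. The summits lay from -137 to 55 bp around the start. In R1 a peak of 1886 and 1872 bp joined the start to a second opening in intron 1, where the naïve libraries had a separate peak of 15 and 14 tags and R2 had none. Nearer the start, the first R2 library had another peak in intron 1, of 8 tags with its summit at 649 bp.

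**Figure D4:**
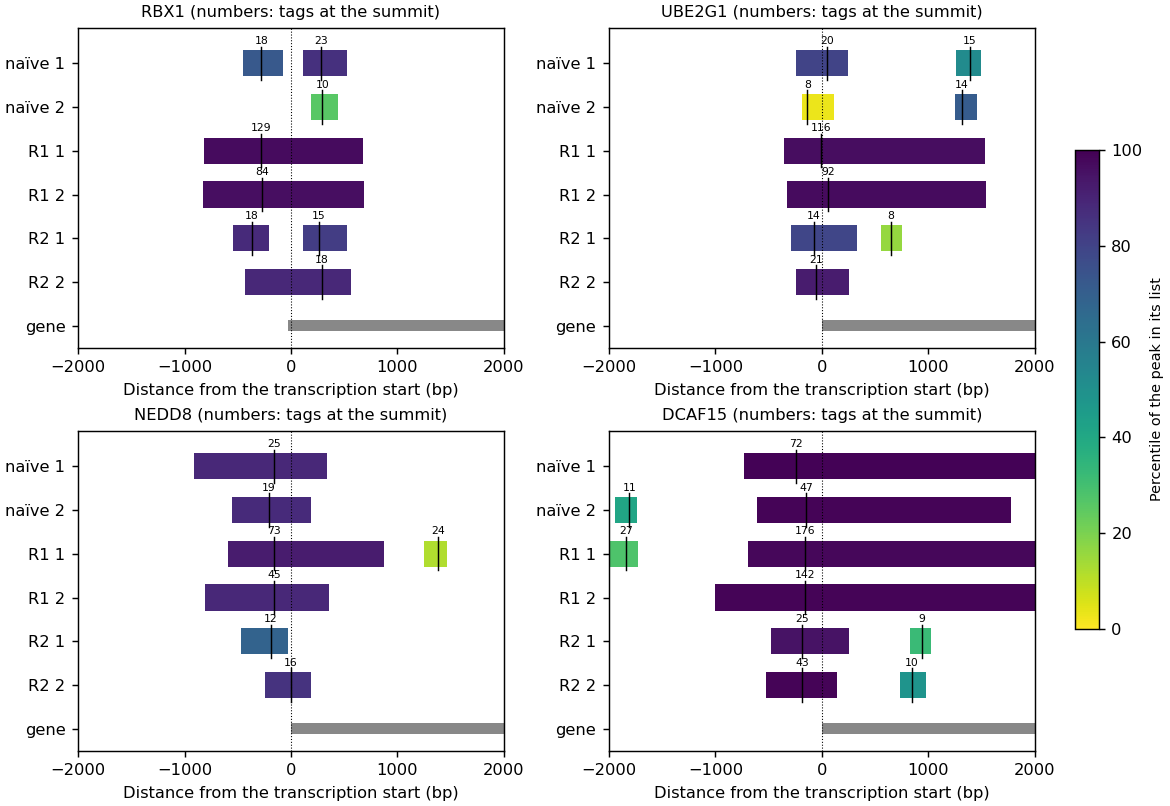
Peaks within 2 kb of the starts of RBX1, UBE2G1, NEDD8 and DCAF15 by library (bars, colored by percentile within their list; black line and number, summit and its tags; gray, gene). RBX1 and UBE2G1 peaks were joined over the start in R1, and that of RBX1 was also joined in the second R2 library. The DCAF15 peak of R2 was 730 and 667 bp wide against 2390 bp or more in the other libraries.

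NEDD8, the modifier itself (chr14:24216857-24232367, minus strand), had the weakest start of the 10 in R1. Its start peak held 25 and 19 tags in the naïve pair, 73 and 45 in the R1 pair and 12 and 16 in the R2 pair. The fold enrichment stayed between 7.03 and 8.95 in all 6 libraries, 7.91 and 8.51 in the naïve pair, 8.28 and 7.15 in the R1 pair and 7.03 and 8.95 in the R2 pair. The tags at the median start, given above, rose further from naïve cells to R1 than those of NEDD8 did, and the start percentile of NEDD8 was 24.5 and 32.7 in the naïve pair, 3.68 and 2.59 in the R1 pair and 20.9 and 41.4 in the R2 pair. Both R1 libraries were thus below the other 4, and the means were 28.6 ± 5.77 for naïve, 3.14 ± 0.772 for R1 and 31.1 ± 14.4 for R2 (SD, n = 2). The R1 minus naïve difference was -1.30 in normal score (SE 0.316, adjusted p = 0.0314, limma), which passed the threshold. The call was lost when any of the 4 libraries compared was left out, with an adjusted p of 0.0727 or 0.107 without the first or second naïve library and 0.201 or 0.260 without the first or second R1 library. R1 minus R2 was -1.35 (SE 0.316) and missed the threshold (adjusted p = 0.0624), with 0.0253 to 0.429 over the alternatives and 0.0411 without the first R2 library, and R2 minus naïve was 0.06 (adjusted p = 0.947). Of the 36 neighbors, 30 were lower in R1, with a median of -13.9 points against -25.5 for NEDD8. In points 11 of the 36 fell further than NEDD8. In normal scores centred by GC content 1 did, with a median of -0.55 against -1.27 for NEDD8. The summits lay from -208 to 1 bp, and the peak also covered the start of the readthrough gene NEDD8-MDP1 in 5 lists and that of GMPR2 in 3, so that these starts share its value. NEDD8-MDP1 and GMPR2 are also among the 36 neighbors.

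UBE2M, which loads NEDD8 onto cullins (chr19:58555712-58558954, minus strand), had 46 and 23 tags at its start in the naïve pair, 151 and 92 in the R1 pair and 18 and 23 in the R2 pair. Its start percentile was 73.6 and 48.4 in the naïve pair, 41.8 and 35.3 in the R1 pair and 52.9 and 70.4 in the R2 pair. Both R1 libraries were the lowest, but the difference of -0.59 did not pass (SE 0.333, adjusted p = 0.293, limma). It turned to 0.88 when the summit and not just any base had to lie within 1 kb. In the second naïve library the summit lay at -1012 bp, and this rule took a peak of 8 tags at 436 bp instead. The start peak also covered the start of MZF1-AS1, at -614 bp on the other strand, in 5 lists. In R1 the UBE2M start lay in a peak of 6371 and 3739 bp, and peaks covered 73.1% and 70.5% of its window, against 25.3% and 19.7% in naïve cells and 12.5% and 13.8% in R2. The medians over all genes, given above, had the same order. Ranked among genes, the UBE2M window stood at the percentiles 84.3 and 86.9 in the naïve pair. It stood at 92.0 and 93.1 in the R1 pair and at 92.1 and 91.9 in the R2 pair.

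CAND1, the exchange factor (chr12:67269358-67319953, plus strand), had R1 and R2 on opposite sides of the naïve libraries. Its start percentile was 56.8 and 55.6 in the naïve pair, 33.7 and 47.7 in the R1 pair and 84.4 and 60.0 in the R2 pair. Both R1 libraries lay below and both R2 libraries above the naïve pair, but neither the difference of R1 from naïve cells (-0.40, adjusted p = 0.492, limma) nor that of R2 (0.48, adjusted p = 0.494) passed, and R1 minus R2 was -0.87 (SE 0.334, adjusted p = 0.195). The tags at its start were 37 and 25 in the naïve pair, 138 and 106 in the R1 pair and 28 and 20 in the R2 pair. The summit ranked lay before the start, at -549 bp in the first naïve library and -502 and -572 bp in the R2 pair. It was at -150 bp in the second naïve library and -155 and 142 bp in the R1 pair. The separate peak over the start itself held 30 and 25 tags in the naïve pair and 18 in the first R2 library. The opposite movement thus compares openings that differ between libraries. A site at -5647 bp (chr12:67263711), in no other annotated gene and picked out after its values were seen, had a peak in R1 alone, with 71 and 45 tags at the percentiles 92.1 and 89.0 of the lists. Scaled by the background rates, this would be 19.7 and 11.6 tags in the naïve libraries and 7.32 and 7.74 in R2, each above the lowest count called there, and no peak was called in those 4. Of the 60 sites found in both R1 lists alone over all 10 windows, 5 reached the lowest called count in all 4 other libraries after such scaling, 19 in both naïve libraries and 16 in none of the 4. Inside wide R1 peaks the tags are those of the summit of the whole peak, and the scaled tags are then too high.

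Over the 10 windows together, the mean number of peaks in R1 was 1.81 times that in naïve cells, and in R2 it was 0.624 times. These are ratios of summed peaks, unlike the medians of ratios by gene, which were 2 and 0.6 over all genes. By gene, the ratio ran from 0.667 (UBE2G1) to 13.3 (CUL4A) in R1 and from 0.412 (DDB1) to 2 (CUL4A) in R2. CUL4A alone had a mean of 46.5 peaks in R1 against 3.5 in naïve cells. Of 260 sites, 31 had a peak in all 6 lists, 29 in both naïve and both R1 lists but no R2 list, 1 in all 4 resistant lists but no naïve list (in CUL4A), and 0 in the naïve pair alone.

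Of the wider pathway, the starts of CUL1, CUL7 and CDC34 were called. Of 9 subunits of the COP9 signalosome, which takes NEDD8 off cullins, 6 had a start peak in all 6 lists and none was called by limma in any comparison. The same was true of all 10 other neddylation genes and of 18 tested among 20 other CRL4 substrate receptors. The receptors' median difference was -0.18 in R1 and 0.21 in R2, beside -0.03 and -0.00324 over all starts. Among 5 tested of 6 other cullins, 2 were called, both lower in R1, beside 3.22% of all starts: CUL1, the scaffold of SCF ligases, which fell by 1.31 in normal score (adjusted p = 0.0302, limma), and CUL7, which fell by 1.87 (adjusted p = 0.0289). Among 7 other E2 enzymes, CDC34, which works with CUL1 ligases, was the only one called, lower in R1 and in R2, beside 3.22% and 0.521% of all starts. Ranked among starts, CDC34 was at 59.0 and 55.6 in the naïve pair, 3.39 and 4.67 in the R1 pair and 1.90 and 4.40 in the R2 pair. CDC34 fell by 1.94 in R1 (SE 0.297, adjusted p = 0.00621, limma) and by 2.07 in R2 (SE 0.297, adjusted p = 0.0111), all 4 resistant libraries far below both naïve ones.

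Markers of cell state also differed at single genes, beside the shares of all starts given above. Of the 6 neuroblastoma markers tested, ISL1 rose in R2 by 1.59 (adjusted p = 0.0342, limma). Of the 5 mesenchymal markers tested, VIM in R1 fell by 1.52 (adjusted p = 0.0195) and FN1 rose in R1 by 1.23 (adjusted p = 0.0462). The median difference of the neuroblastoma markers was -0.06 in R1 and -0.20 in R2, and that of the mesenchymal markers was -0.33 and 0.27. Their part in the values of the ligase genes was not tested.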

How the data were processed

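The data are 6 lists of ATAC-seq peaks, 1 for each library. As the methods and the submitters' processing notes state it, the authors aligned reads with BWA 0.7.12-r1039, marked duplicates with Picard 1.65, filtered reads with SAMtools 1.3.1, dropped reads of the mitochondrial genome, moved the ends of reads by 4 or -5 bp to the centre of the transposase cut, and ran each library on its own through MACS2 2.2.7.1 (q of 0.01, extension of 200 bp, shift of 100 bp). A shift of that kind moves tags along the fragment, and summit positions depend on it. The deposited columns hold a fold enrichment over background, which is a ratio, then a −log10 p-value and a −log10 q-value. They depend on depth, so they were ranked within each list. An alternative centred log2 folds on the median start of each list. The methods name hg19, the notes name hg19 and hg38, and peaks fit the chromosome lengths of hg38, so hg38 with GENCODE release 44 was used.

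Tags per summit and the background rate were recovered from fold and p of each peak, and the tags came out whole within 0.01 wherever p was not too small to invert. Start percentiles were turned into normal scores and fitted with limma 3.58.1 in R 4.3.3 over all 6 libraries, with 3 residual and 8.62 prior degrees of freedom. The study states no test for these lists. The fit and the recovery of tags were tested on simulated data. Adjusted p-values are Benjamini-Hochberg over all 10950 starts, and calls were made at 0.05. Tables were made in Python 3.11.15 (pandas 2.3.3, SciPy 1.17.1, NumPy 2.4.6). Titles number the libraries 1 and 2 in each culture. Deviations of same-numbered libraries from their group means correlated at 0.0530, -0.0125 and 0.000471 over starts, so the numbers do not pair them.

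All 10 genes are named. Of the wider lists, up to 4 called genes with the largest difference are named. The genes, lists and tests were chosen with earlier results of these data known. Alternatives were leaving out each library, the library number as a block, other peak, distance and threshold rules, log2 fold in place of ranks, and, added after the data were seen, scores centred by GC content. Ranking by fold in place of p gives the same ranks by construction.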

Additional observations from a re-analysis of the deposited data

Results flagged for a closer look

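The CAND1 start was picked out because R1 and R2 moved opposite ways from the naïve libraries. Its start percentile was 56.8 and 55.6 in the naïve pair, 33.7 and 47.7 in the R1 pair and 84.4 and 60.0 in the R2 pair. The peak ranked was not the same opening in each library, as the summits given above show. In normal score R1 minus R2 was -0.87, and limma did not find that difference past the threshold (adjusted p = 0.195, and 0.0726 to 0.810 over the alternatives).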

How the results depend on the processing

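With 2 libraries a group, depth and single libraries limit every call. Over the alternatives, 426 of the values at the 10 starts kept their direction and side of the threshold, 14 passed it, 7 lost it and 15 changed sign. These counts include ranking by fold, which repeats the main values by construction. For each comparison, leaving out either library of the third group gave the same fit, and both were counted here and at single genes. The alternatives are thus fewer than their count. Starts called in all were 772 for R1 against naïve cells, 138 for R2 and 155 for R1 against R2. Leaving out 1 library each gave 92 to 1522, 12 to 311 and 31 to 254. Requiring the summit within 1 kb gave 62 for R2 and 44 for R1 against R2, and the latter became 296 with a variance trend and 312 on log2 folds. Centred log2 folds moved the split for R1 from 419 higher and 353 lower to 453 and 662, and for R1 against R2 from 79 and 76 to 99 and 213. Keeping peaks from a −log10 q of 5 upward raised the R1 to naïve ratio over the windows from 1.81 to 2.34. Taking neighbors within 2 Mb in place of 1 Mb moved 8 of the neighbor medians by at least their SD between libraries of a group. The other 12 moved by less, so the neighbor medians depend on the distance chosen.

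The library number as a block gave 820, 160 and 175 starts called and changed no call at the 10 starts. Centring by GC content, chosen after seeing the data, gave 754, 140 and 117, kept the CUL4A (adjusted p = 0.0397, limma) and NEDD8 (0.0414) calls in R1, and turned NEDD8 in R2 to -0.0426.

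None of the values that changed sign had been called, and the cause was not tested. Over the fits that left out 1 library, DDB1 in R1 ran from -0.37 to 0.72. In R2, DCAF15 ran from -0.83 to 0.36, CUL4B from -0.0207 to 0.47, UBE2M from -0.33 to 0.35 and NEDD8 from -0.24 to 0.35. In R1 against R2, DDA1 ran from -0.77 to 0.0475, CUL4A from -0.11 to 0.61 and CUL4B from -0.0775 to 0.41. UBE2M became 0.88 in R1 with the summit rule and -0.00513 in R2 on log2 folds.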
